A study of Homo sapiens with 6 samples.

Results

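The insulin-like growth factor (IGF) binding proteins and receptors are described here in tumours grown from UMUC3, a human cell line of bladder carcinoma. The 9 genes, IGFBP2, IGFBP3, IGFBP4, IGFBP5, IGFBP6, IGFBP7, IGF1R, IGF2R and INSR, were chosen by symbol from 21503 genes with estimated counts and 60233 with TPM values. All 9 passed the filter on low counts and were tested among 19430 genes. Cells with knockdown of GANAB (3 libraries) were set against control UMUC3 cells (3 libraries). Both kinds of cell had been placed orthotopically in the bladder of C57 nude mice and were kept there for 14 days, and the mice received no further treatment. No label names the knockdown reagent, the number of clones or the number of animals behind a library. Nude mice lack a thymus and so have few T cells, but keep other immune cells and the stroma of the bladder. GANAB encodes the catalytic subunit of glucosidase II, which trims glucose from new N-glycans in the endoplasmic reticulum.

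IGF1 and IGF2 are secreted growth factors that signal through the receptor tyrosine kinase encoded by IGF1R and, for IGF2 and insulin, through the insulin receptor encoded by INSR. The IGF2R product, also known as the cation-independent mannose 6-phosphate receptor, does not signal as a kinase: it carries IGF2 to lysosomes for degradation and sorts lysosomal enzymes tagged with mannose 6-phosphate. The IGF binding proteins hold IGFs outside the cell, where they prolong their life and either limit or help their access to the receptors; IGFBP7 binds IGFs only weakly. The 3 receptors and several of the binding proteins are glycoproteins made in the secretory pathway, and only their RNA was measured here.

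The promoters of IGFBP5, IGFBP3, IGFBP4 and IGFBP6 are shown because these 4 binding protein genes had the largest fold differences or the highest levels. Each window runs from 250 bases before to 50 bases after the start of the gene in RefSeq (GRCh38.p14), 5′ to 3′ on the strand of the gene. Of the 9 genes, 8 were found in the promoter table. Capitals mark 5 words searched on both strands and chosen after the sequences were seen: TATANA, which covers the common form of the TATA box; TATTTAA, a related word that it does not cover; GGGCGG, the core letters bound by SP1; GTAAACA, a word bound by forkhead factors; and ACGTG, the core shared by hypoxia and E-box elements. Overlapping matches are joined into 1 run of capitals.
IGFBP5, chr2:216695500-216695799, minus strand: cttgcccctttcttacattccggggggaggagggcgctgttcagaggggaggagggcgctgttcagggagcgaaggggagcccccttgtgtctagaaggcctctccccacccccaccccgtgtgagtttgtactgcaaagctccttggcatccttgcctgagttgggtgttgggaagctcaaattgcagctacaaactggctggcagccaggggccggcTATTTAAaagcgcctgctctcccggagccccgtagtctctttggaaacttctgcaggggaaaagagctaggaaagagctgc
IGFBP3, chr7:45921223-45921522, minus strand: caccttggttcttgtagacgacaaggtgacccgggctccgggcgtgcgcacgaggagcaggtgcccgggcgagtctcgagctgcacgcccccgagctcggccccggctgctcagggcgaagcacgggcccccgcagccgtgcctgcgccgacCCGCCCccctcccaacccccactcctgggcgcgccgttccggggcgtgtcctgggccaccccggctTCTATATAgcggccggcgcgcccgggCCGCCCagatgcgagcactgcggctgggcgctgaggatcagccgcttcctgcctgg
IGFBP4, chr17:40443200-40443499, plus strand: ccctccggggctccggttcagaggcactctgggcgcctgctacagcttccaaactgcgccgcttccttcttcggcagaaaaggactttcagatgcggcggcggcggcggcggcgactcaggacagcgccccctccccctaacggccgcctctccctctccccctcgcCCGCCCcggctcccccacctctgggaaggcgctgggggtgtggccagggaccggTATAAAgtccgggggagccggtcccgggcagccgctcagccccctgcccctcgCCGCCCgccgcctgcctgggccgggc
IGFBP6, chr12:53097417-53097716, plus strand: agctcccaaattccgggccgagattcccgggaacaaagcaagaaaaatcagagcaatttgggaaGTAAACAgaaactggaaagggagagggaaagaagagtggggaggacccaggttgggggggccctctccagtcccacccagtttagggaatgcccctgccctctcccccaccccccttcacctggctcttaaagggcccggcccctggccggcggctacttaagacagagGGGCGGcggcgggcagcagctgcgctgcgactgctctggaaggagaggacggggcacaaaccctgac
IGFBP5 held TATTTAA with its first base at -31 from the gene start, and none of the other searched words. IGFBP3 held overlapping TATANA matches at -32, on the opposite strand, and at -30, where the letters read the same on both strands, and GGGCGG on the opposite strand at -98 and -6. IGFBP4 held TATANA at -29 and GGGCGG on the opposite strand at -83 and 24. IGFBP6 held GGGCGG at -17 and GTAAACA at -186, and neither TATA-box form. Of 35116 promoter windows of this length, 4.52% held TATTTAA, 19.0% TATANA, 45.0% GGGCGG, 3.42% GTAAACA and 21.4% ACGTG. These matches describe letters only, and no binding was measured.

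The libraries held 36619291 to 40039584 estimated counts in the knockdown group and 11737837 to 36381218 in the control group. GANAB itself was at 231, 238 and 231 CPM (estimated counts scaled to a common library size, with TMM factors) in the knockdown libraries, against 685, 825 and 661 CPM in the control libraries. It was therefore at 32.2% of the control level (log2 fold change -1.63, SE 0.141, edgeR quasi-likelihood test, adjusted p = 0.00239). The 3 knockdown libraries resembled each other far more than the 3 control libraries did, with a biological coefficient of variation of 10.7% in the knockdown group and 53.4% in the control group. Mitochondrial genes took 5.76% to 6.53% of counts in knockdown libraries, and 32.6%, 4.46% and 2.18% in control libraries 1, 2 and 3. The labels number the libraries but do not say that they came from separate animals, so p-values cover only how far these samples scatter, a scatter that may be technical. Over all genes tested, 8.31% were called at an adjusted p under 0.05, 4.59% as higher and 3.72% as lower in knockdown.

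Of the 9 genes, IGFBP5 rose and IGFBP3 fell in GANAB knockdown tumours, and 7 did not pass the test. The 3 receptor genes were among those that did not pass, and their largest difference was a factor of 1.25. Among binding protein transcripts, IGFBP6 was the most abundant in each knockdown library and IGFBP4 in each control library. CPM values of the groups did not overlap for 4 of the 9 genes, 3 of them lower and 1 higher in knockdown; over all genes tested, the groups did not overlap for 37.6%, with 15.7% lower and 21.9% higher. In TPM the count was 5 of 9, of which IGFBP5, IGFBP6 and IGFBP7 were higher and IGFBP3 and IGFBP4 lower in knockdown, beside 29.5% of all genes (24.9% higher, 4.58% lower).

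**Figure D1:**
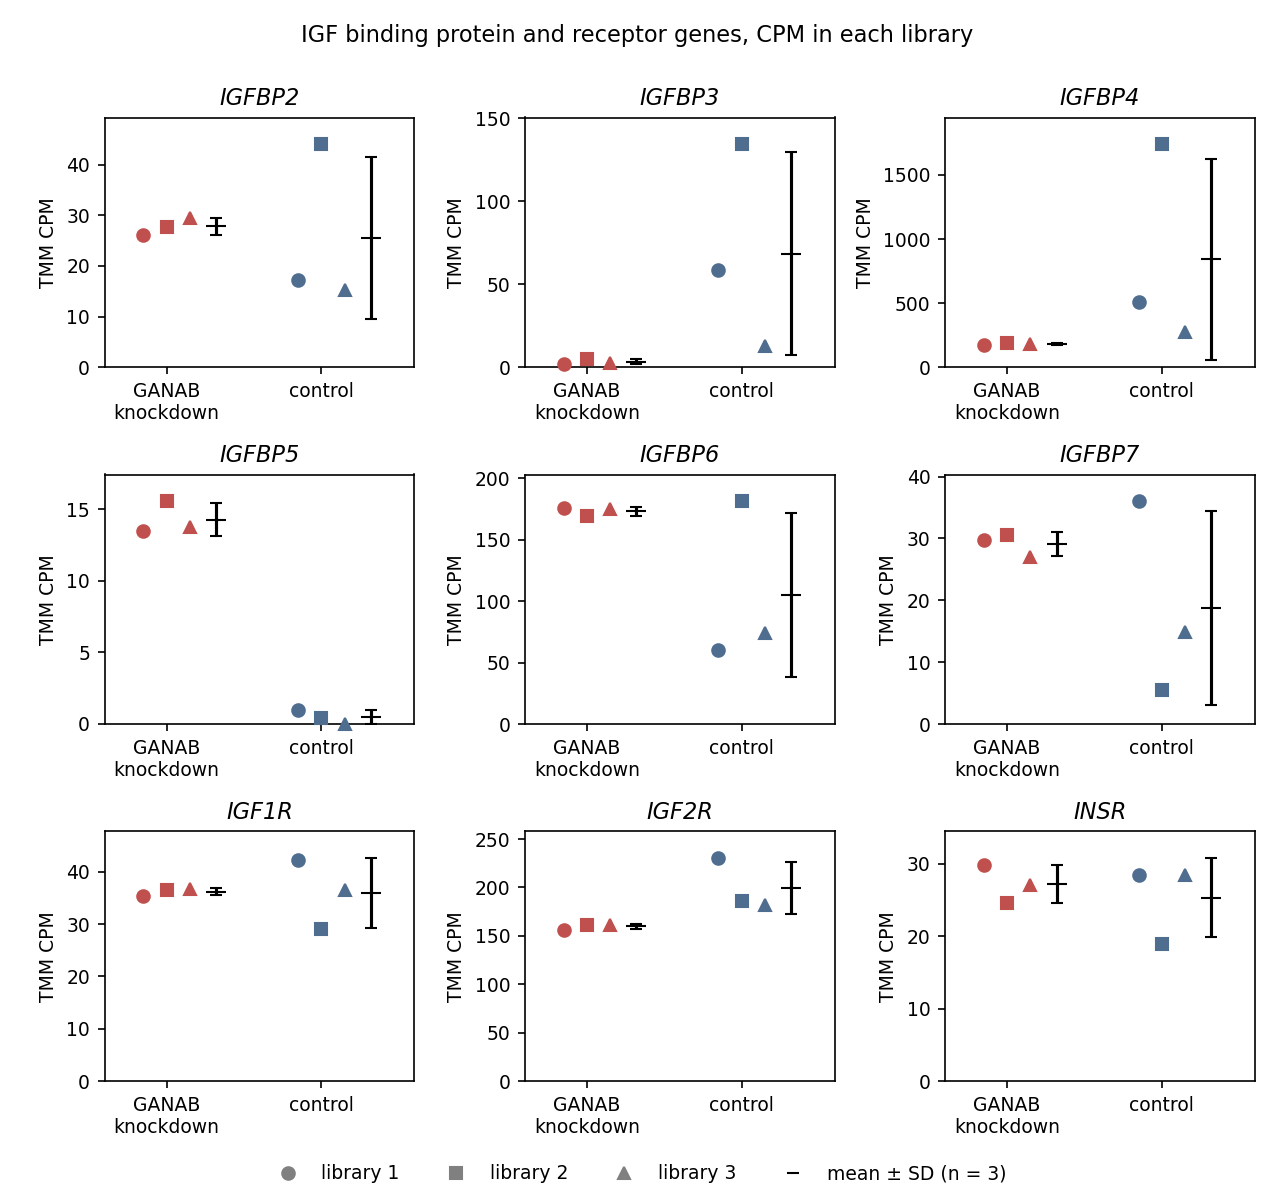
TMM-scaled CPM (vertical axis, linear) of the 9 genes in each library of the GANAB knockdown group (red, left) and the control group (blue, right). Symbols give the library number and bars the mean and SD of 3 libraries, and the control bar of IGFBP5 reaches below 0. The groups are fully apart for IGFBP3, IGFBP4, IGFBP5 and IGF2R, and control library 2 is the highest control for IGFBP2, IGFBP3, IGFBP4 and IGFBP6.

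IGFBP5, a binding protein held in the extracellular matrix and made in many mesenchymal tissues, had 543, 611 and 585 counts in the knockdown libraries, against 26, 7 and 0 counts in the control libraries. This corresponded to 13.5, 15.6 and 13.8 CPM in knockdown libraries and to 0.956, 0.368 and 0 CPM in control libraries. All 3 knockdown libraries lay far above the highest control library, and the count of 0 in control library 3 allows up to 3 counts, or 0.247 CPM. The mean was 14.3 ± 1.13 CPM in knockdown and 0.441 ± 0.482 CPM in control libraries (SD, n = 3 each), a 28.3-fold rise (log2 fold change 4.82, SE 0.719, edgeR adjusted p = 0.0128). The 95% confidence interval of the fold ran from 8.85 to 90.6. Without control library 1, which held most of the control counts, the rise was 63.6-fold. It was 43.4-fold with limma-voom and 4.72-fold on log2(TPM + 1), a scale that understates the change of low genes. Leaving out any knockdown library kept the log2 fold change between 4.797 and 4.899 but ended the call (edgeR adjusted p = 0.0869 to 0.0889).

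Markers of smooth muscle were examined beside IGFBP5. The summed level of 8 smooth muscle genes was 625 to 651 TPM (a level scaled for gene length and library total) in knockdown libraries and 175 to 305 TPM in control libraries, and 3 of the 8 rose: ACTA2, MYH11 and CNN1 (edgeR adjusted p = 0.0310, 0.0130 and 0.0335), beside 4.59% called as higher over all genes. The other 5 did not pass, with log2 fold changes of 0.36 for MYLK, 0.85 for DES, 1.08 for ACTG2, 1.23 for SYNPO2 and -0.31 for SMTN. The summed level of 11 fibroblast and pericyte genes was 64.0 to 81.1 TPM in knockdown and 15.3 to 53.2 TPM in control libraries, where 1 of 8 tested genes, PDGFRB, rose (edgeR adjusted p = 0.0195) and LUM was listed at 0 in all 6 libraries. In CPM the collagen genes of this list overlapped between the groups. COL1A1 had 82.9, 76.3 and 79.2 CPM in knockdown libraries, against 118, 9.15 and 15.5 CPM in control libraries. Control library 1 was also the highest of the 6 for COL3A1, and COL1A2 overlapped, while PDGFRB did not overlap on either scale. The part of these markers in the IGFBP5 result was not tested. In bulk RNA, fewer cells of a type and less RNA per cell cannot be told apart, and mouse RNA from the host bladder may be counted as human where its sequence matches. By mean absolute difference of centred log2 CPM over the 6 libraries, the 3 genes with a pattern most like that of IGFBP5 were PLXNA4 (0.54), MYH11 (0.54) and ADAMTS18 (0.55). In control libraries PLXNA4 had 0.221, 0.368 and 0 CPM and ADAMTS18 0.368, 0 and 0 CPM, so both patterns rest on few control counts. MYH11 is itself in the smooth muscle list above, so its likeness is no separate support for that list.

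IGFBP5 lies on chromosome 2 (216672105 to 216695525, minus strand, GRCh38, GENCODE release 29), with its 3′ end 7668 bases from that of IGFBP2, which runs the other way and is the next protein-coding gene. The neighbours differed in their values. IGFBP2, whose product is a common circulating binding protein, was at 26.2, 27.8 and 29.5 CPM in knockdown libraries, against 17.3, 44.1 and 15.3 CPM in control libraries. Knockdown libraries lay between control library 2 and the other control libraries, and the log2 fold change was 0.12 (SE 0.386, edgeR adjusted p = 0.885). Its 95% interval, a fold of 0.582 to 2.03, covers a change in either direction. Without control library 2, IGFBP2 was called as 1.71-fold higher (edgeR adjusted p = 0.00364). An antisense gene overlaps IGFBP5 and is not in the count table, and none overlaps IGFBP2; the sources used here do not say whether counting used strand.

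IGFBP3, which carries most IGF in blood and also acts on cells independently of IGFs, had 2.08, 4.91 and 2.62 CPM in knockdown libraries, against 58.5, 134 and 12.7 CPM in control libraries. Every knockdown library was below every control library, although control values ranged 10.6-fold among themselves. The mean was 3.20 ± 1.50 CPM in knockdown and 68.5 ± 61.5 CPM in control libraries (SD, n = 3 each). This was a 21.4-fold lower level in knockdown (log2 fold change -4.42, SE 0.829, edgeR adjusted p = 0.0232; 95% interval -6.36 to -2.49). Without control library 2, the highest, the level was 11.2-fold lower and still called (edgeR adjusted p = 0.00579), and on log2(TPM + 1) it was 8.88-fold lower. Without knockdown library 1, 2 or 3 the direction held and the call was lost (edgeR adjusted p = 0.136, 0.0999 and 0.135).

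The gene lies on chromosome 7 (45912245 to 45921874, minus strand) and overlaps no other annotated gene. Its neighbour IGFBP1, a binding protein of liver and decidua, lies 18576 bases away and was listed at 0 TPM in all 6 libraries. The 3 genes most like IGFBP3 over the 6 libraries were SERPINA3 (mean absolute difference 0.25 on the log2 scale), CES1 (0.34) and FPR1 (0.39). FPR1 is a receptor of neutrophils and macrophages. The summed level of 8 macrophage and myeloid genes was 57.7 to 61.5 TPM in knockdown libraries and 61.2 to 229 TPM in control libraries, with the highest value in control library 2. CD68, a lysosomal gene abundant in macrophages but not limited to them, made up most of it, with 47.1, 43.9 and 42.5 TPM in knockdown libraries and 51.6, 207 and 59.0 TPM in control libraries. The 6 tested genes were divided, 3 with a positive log2 fold change (CSF1R, PTPRC and ITGAM) and 3 with a negative one. None of the 6 that were tested passed in edgeR, 1 had an unadjusted p under 0.05, 1 passed with DESeq2, 0 with limma-voom and 1 with limma-voom and sample quality weights. Their part in the IGFBP3 result was not tested.

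IGFBP4, a binding protein known mainly for restraining IGF action until proteases cut it, had 172, 187 and 180 CPM in knockdown libraries, against 507, 1740 and 275 CPM in control libraries. The groups did not overlap, but control library 2 alone was 6.33 times control library 3. The mean was 180 ± 7.45 CPM in knockdown and 840 ± 788 CPM in control libraries (SD, n = 3 each), a ratio of 0.214. IGFBP4 did not pass the main test (log2 fold change -2.22, SE 0.616, edgeR adjusted p = 0.0666). It was called by DESeq2 (adjusted p = 0.000854), by limma-voom with sample quality weights (log2 fold change -1.32, adjusted p = 0.00325), and in edgeR without control library 2 (log2 fold change -1.12, adjusted p = 0.00928) or without control library 3 (-2.70, adjusted p = 0.0291). The gene lies on chromosome 17 (40443461 to 40457731, plus strand), between TNS4 (18096 bases away), a tensin of focal adhesions, and TOP2A (25510 bases away), a DNA topoisomerase of dividing cells. TNS4 did not pass (log2 fold change -0.74, edgeR adjusted p = 0.730), and TOP2A fell (-1.43, edgeR adjusted p = 0.0127).

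IGFBP6, which prefers IGF2 over IGF1, had 176, 169 and 175 CPM in knockdown libraries, against 59.9, 181 and 73.7 CPM in control libraries. In CPM, control library 2 was as high as the knockdown libraries, while control libraries 1 and 3 were well below all of these. The difference did not pass the test (log2 fold change 0.72, SE 0.388, edgeR adjusted p = 0.291), and without control library 2 it did (1.38, adjusted p = 0.000215), as it did with limma-voom and sample quality weights (1.31, adjusted p = 0.000377). IGFBP7, which is abundant in vessels and binds matrix proteins, had 29.7, 30.6 and 26.9 CPM in knockdown libraries, against 36.0, 5.47 and 14.9 CPM in control libraries. In CPM, control library 2 was the lowest and control library 1 the highest of all 6; in TPM the knockdown libraries, with 32.9, 34.5 and 30.4 TPM, were all above the control libraries, with 26.1, 6.33 and 17.6 TPM. No setting tried called a difference (log2 fold change 0.62, SE 0.562, edgeR adjusted p = 0.544). The log2 fold change was 1.52 without control library 1 (edgeR adjusted p = 0.0754) and 0.17 without control library 2 (adjusted p = 0.735). IGFBP7 overlaps POLR2B and 2 other genes on the opposite strand.

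The spread within the control group differed between the 9 genes and between the scales. On the CPM scale, control values of IGF1R, IGF2R and INSR differed by factors of 1.45, 1.27 and 1.50 between the highest and lowest library, while those of the binding proteins with counts in every library differed by 2.88 to 10.6. In TPM this contrast did not hold for IGF1R: the factor was 3.58 for IGF1R, 1.58 for IGF2R and 2.20 for INSR, and 3.15 to 10.07 for those binding proteins. In CPM within the knockdown group the same factor was 1.03 to 1.21 for the receptors and 1.04 to 2.36 for the binding proteins, with IGFBP3 the most variable. Control library 2 was the highest control in CPM for 4 of the 6 binding proteins.

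**Figure D2:**
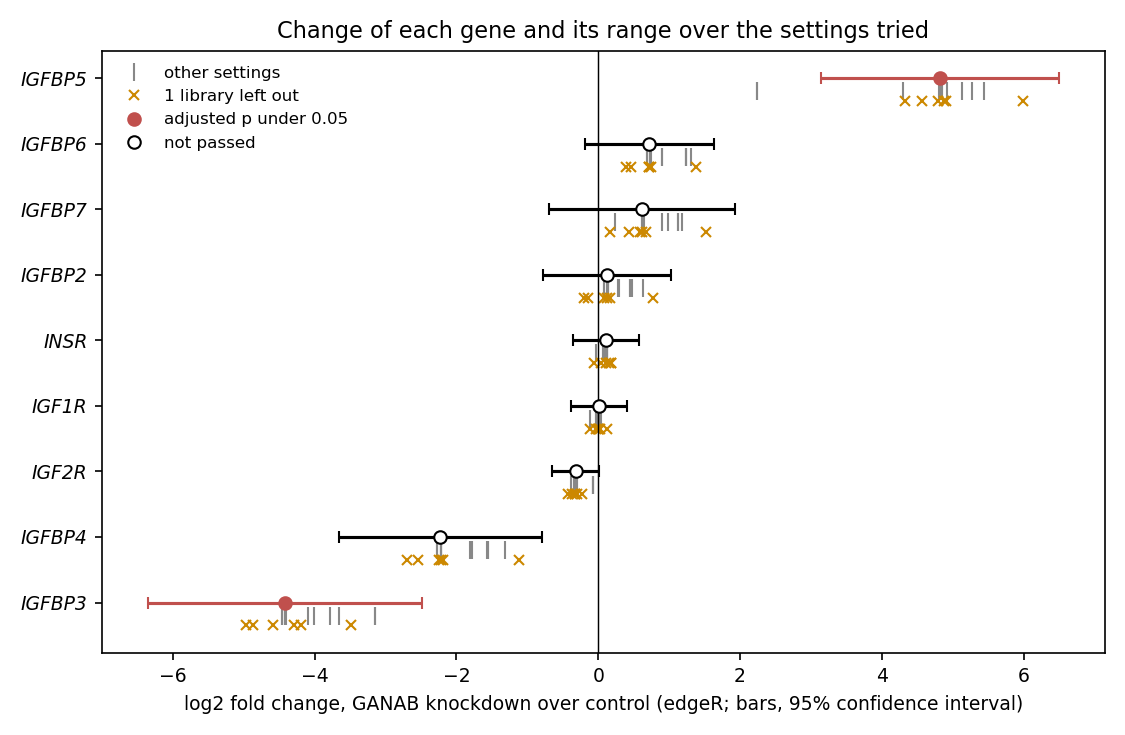
Log2 fold change of GANAB knockdown over control (horizontal axis) for each of the 9 genes, from edgeR on all 6 libraries with its 95% confidence interval; grey ticks give other tests and scalings, and orange crosses the fits with 1 library left out. IGFBP5 at 4.82 and IGFBP3 at -4.42 stay on their side of 0 in every fit drawn, and IGF1R, INSR and IGFBP2 have values on both sides.

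IGF1R, the main receptor for IGF1 and IGF2, had 35.4, 36.4 and 36.8 CPM in knockdown libraries, against 42.3, 29.1 and 36.5 CPM in control libraries. The knockdown values lay inside the control range, and the fold had a 95% interval of 0.768 to 1.32 (log2 fold change 0.01, SE 0.167, edgeR adjusted p = 0.981). INSR had 29.8, 24.5 and 27.1 CPM in knockdown libraries, against 28.4, 19.0 and 28.5 CPM in control libraries. The groups overlapped, and the interval of the fold was 0.778 to 1.48 (log2 fold change 0.10, SE 0.200, edgeR adjusted p = 0.795). Neither gene passed in any setting tried, and changes inside the intervals given could not be detected with 3 libraries a group. The intervals come from the main fit only, and the groups differed in spread, so they set no firm bound on a change. In TPM, IGF1R had 5.75, 4.95 and 4.42 TPM in knockdown libraries, against 3.91, 3.01 and 10.8 TPM in control libraries.

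IGF2R had 156, 162 and 161 CPM in knockdown libraries, against 230, 186 and 182 CPM in control libraries. All 3 knockdown values were lower on this scale, but the difference was small and did not pass (log2 fold change -0.32, SE 0.140, edgeR adjusted p = 0.202; fold interval 0.639 to 1.01). It passed without control library 2 (-0.36, edgeR adjusted p = 0.0423) and with limma-voom and sample quality weights (-0.38, adjusted p = 0.0257). In TPM the groups overlapped, with 27.4, 28.7 and 28.1 TPM in knockdown libraries and 24.6, 38.8 and 27.2 TPM in control libraries. IGF2R overlaps an antisense gene, AIRN, and a pseudogene on its own strand.

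IGF1R and INSR products can pair into hybrid receptors, so their transcript ratio was compared. IGF1R TPM divided by INSR TPM was 1.28, 1.30 and 0.979 in knockdown libraries, against 1.44, 0.767 and 1.80 in control libraries. The log2 ratio averaged 0.23 ± 0.23 in knockdown and 0.33 ± 0.64 in control libraries (SD, n = 3 each). The difference of -0.10 was smaller than the spread in either group (exact permutation test, 2-sided, p = 0.8; the smallest p this design allows is 0.1). Its sign turned without knockdown library 3 (0.03) and without control library 3 (0.16).

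Levels of different genes were compared in TPM. In knockdown libraries IGFBP6 was the highest, with 290, 293 and 322 TPM, against 62.2, 287 and 116 TPM in control libraries. IGFBP4 came next in knockdown, with 108, 121 and 113 TPM, and was the highest in each control library, with 206, 1068 and 173 TPM. Every knockdown library thus had more IGFBP6 than IGFBP4, and every control library the reverse. Below them in knockdown libraries stood IGFBP2 (33.7 ± 2.42 TPM) and IGFBP7 (32.6 ± 2.05 TPM), which overlapped each other, and then IGF2R (28.0 ± 0.632 TPM; SD, n = 3 each). IGF1R (5.04 ± 0.669 TPM), IGFBP5 (4.96 ± 0.919 TPM) and INSR (4.28 ± 0.399 TPM) overlapped as well, and IGFBP3 was lowest at 1.93 ± 1.04 TPM (SD, n = 3 each). In the control group the order by mean was IGFBP4, IGFBP6, IGFBP3, IGF2R, IGFBP2, IGFBP7, IGF1R, INSR and IGFBP5, and only INSR and IGFBP5 were neighbours whose ranges did not overlap.

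Shares of the summed TPM of the 6 binding protein genes show the same order within each library. IGFBP4 made up 23.0%, 24.6% and 22.2% of this sum in knockdown libraries, against 61.7%, 71.8% and 52.0% in control libraries. IGFBP6 made up 62.0%, 59.7% and 63.5% in knockdown libraries, against 18.7%, 19.3% and 34.9% in control libraries. Both shares were fully apart between the groups, even though the sum itself was 468 to 507 TPM in knockdown and 333 to 1487 TPM in control libraries. The share of IGFBP2, whose own level overlapped and did not pass, was also fully apart (6.72% to 7.16% in knockdown, 3.30% to 5.54% in control libraries). That of IGFBP7 overlapped (6.01% to 7.03% in knockdown, 0.426% to 7.84% in control libraries). IGFBP3 held 0.253% to 0.635% in knockdown and 2.27% to 6.86% in control libraries. IGFBP5 held 0.844% to 1.22% in knockdown and at most 0.249% in control libraries, so the gene that rose the most remained a small part of the binding protein RNA. Shares within 1 library depend on each other, so these are descriptions of the same values and not further tests.

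**Figure D3:**
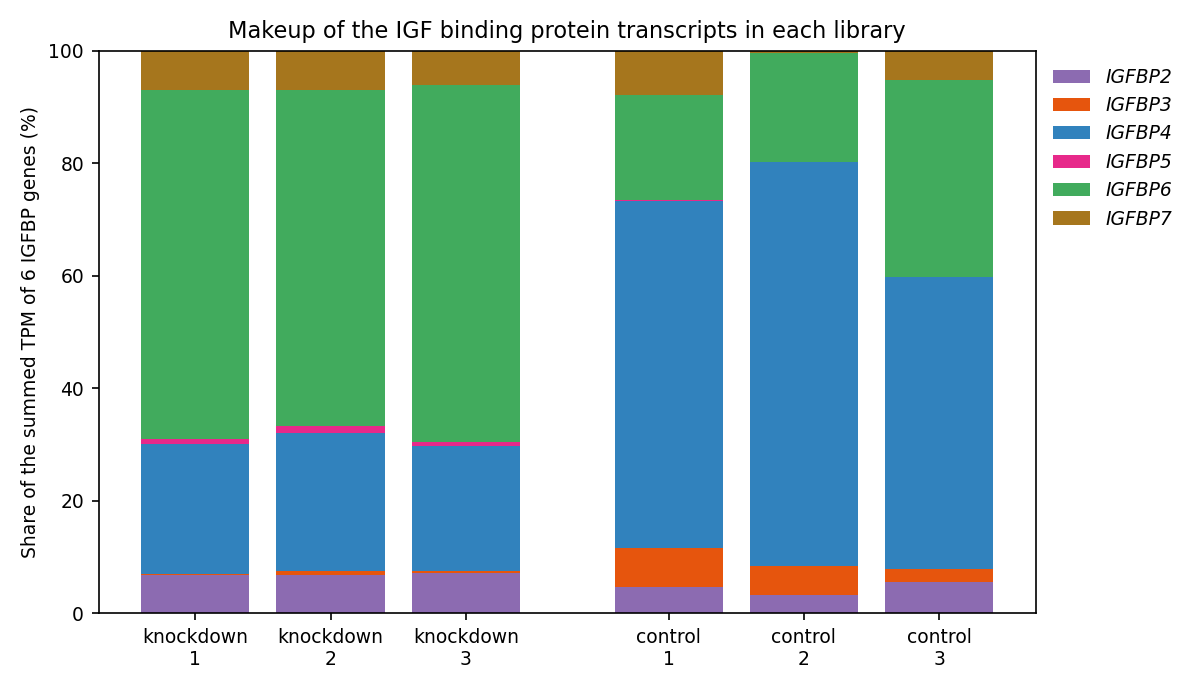
Share of each binding protein gene (vertical axis, % of the summed TPM of the 6 genes) in each library, with the 3 GANAB knockdown libraries on the left and the 3 control libraries on the right. IGFBP6 (green) takes 59.7% to 63.5% in knockdown libraries, and IGFBP4 (blue) takes 52.0% to 71.8% in control libraries.

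The rest of the pathway was described by 8 lists with 92 genes, of which 78 were tested. In these lists 2 genes were called as higher and 6 as lower, and the median log2 fold change was -0.18, beside 0.03 over all genes tested. The share called in the lists, 8 of 78, stands beside 8.31% over all genes.

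Of the ligands, neither of the 2 tested genes passed in edgeR; 1 had an unadjusted p under 0.05, 1 passed with DESeq2, 0 with limma-voom and 1 with limma-voom and sample quality weights. IGF2 had 199, 192 and 188 CPM in knockdown libraries, against 193, 496 and 113 CPM in control libraries, and so followed the pattern of a high control library 2 (log2 fold change -0.47, SE 0.473, edgeR adjusted p = 0.590). Without control library 2 its sign turned (0.33). IGF1 was scarce, with 0.695, 0.586 and 0.0942 CPM in knockdown libraries, against 1.69, 2.63 and 3.21 CPM in control libraries (log2 fold change -2.44, SE 0.746, edgeR adjusted p = 0.0868). INS, the insulin gene, was listed at 0 TPM in all 6 libraries.

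Proteases that cut binding proteins and their inhibitors held 7 tested genes, of which 1 rose and 1 fell. HTRA1, a secreted protease that cuts IGFBP5 among other matrix proteins, had 145, 146 and 148 CPM in knockdown libraries, against 62.9, 31.9 and 75.0 CPM in control libraries. It rose with a log2 fold change of 1.37 (SE 0.290, edgeR adjusted p = 0.0313), and the call was lost without control library 1 (adjusted p = 0.0589) and without any knockdown library (0.135 to 0.145). STC1 is a stanniocalcin, a secreted glycoprotein that inhibits the pappalysin proteases of IGFBP4 and IGFBP5. It had 23.7, 22.6 and 22.1 CPM in knockdown libraries, against 85.7, 73.2 and 58.8 CPM in control libraries. Its log2 fold change was -1.67 (SE 0.169, edgeR adjusted p = 0.00369), and it just missed the threshold without knockdown library 1 or 3 (adjusted p = 0.0518 and 0.0503). ADAM9, a membrane metalloprotease, did not pass (log2 fold change -0.40, SE 0.174, edgeR adjusted p = 0.193), but did without control library 2 (-0.55, adjusted p = 0.00650).

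Receptor-proximal adaptors and inhibitors held 16 tested genes, of which 1 was called as higher and 2 as lower. SOCS3, a suppressor of cytokine signalling that also binds IRS proteins and the insulin receptor, had 141, 137 and 142 CPM in knockdown libraries, against 27.9, 35.2 and 14.7 CPM in control libraries. All knockdown values were well above the highest control value (log2 fold change 2.43, SE 0.298, edgeR adjusted p = 0.00698; 0.0547 and 0.0538 without knockdown library 1 or 3). PTPRF, a receptor phosphatase that acts on the insulin receptor, fell (log2 fold change -0.80, SE 0.151, edgeR adjusted p = 0.0232). NEDD4, a ubiquitin ligase that acts on IGF1R with GRB10, was called as lower in the main test (-0.70, SE 0.167, edgeR adjusted p = 0.0462). On the TPM scale it was higher (0.43), with 109, 103 and 109 TPM in knockdown libraries, against 75.4, 71.1 and 91.8 TPM in control libraries. The groups did not overlap on either scale, so the direction of NEDD4 depended on the scale. Both calls were lost without any knockdown library (adjusted p = 0.138 to 0.160 for PTPRF and 0.196 to 0.235 for NEDD4), and that of NEDD4 without control library 1 (adjusted p = 0.0838). The NEDD4 call was also lost with upper-quartile scaling and without a filter (edgeR adjusted p = 0.0521 and 0.0522).

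Among 25 genes of the PI3K, AKT and mTOR pathway, 1 fell and none rose. PHLPP1, a phosphatase that inactivates AKT, had 8.69, 7.0 and 7.54 CPM in knockdown libraries, against 27.7, 24.0 and 28.5 CPM in control libraries (log2 fold change -1.79, SE 0.179, edgeR adjusted p = 0.00369; 0.0503 without knockdown library 3). TSC2, an inhibitor of mTOR signalling, and PDPK1, the kinase that activates AKT, had log2 fold changes of 0.71 and 0.67 and did not pass (edgeR adjusted p = 0.0620 and 0.0868). Without control library 2 both were called (0.81 and 0.52, edgeR adjusted p = 0.0121 and 0.0452), and PDPK1 also without control library 1 (0.89, adjusted p = 0.0293). Over the 25 genes the median was -0.17.

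The mannose 6-phosphate list, with genes of the tag that IGF2R recognises and of sorting, held 15 tested genes, of which 1 fell. This was SORT1, a sorting receptor for lysosomal and secretory cargo, with 51.6, 56.9 and 53.3 CPM in knockdown libraries, against 126, 107 and 103 CPM in control libraries (log2 fold change -1.05, SE 0.136, edgeR adjusted p = 0.00811; 0.0750 to 0.0912 without any knockdown library). GNPTG, a subunit of the enzyme that adds the mannose 6-phosphate tag, and VPS26A, a retromer subunit, did not pass (log2 fold change 1.05 and -0.61, edgeR adjusted p = 0.0661 and 0.0848), and both did without control library 2 (1.46 and -0.76, adjusted p = 0.000365 and 0.00284).

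IGF2BP2, which binds IGF2 and other mRNAs, was the 1 of 2 tested IGF2 mRNA-binding genes that fell, with 119, 109 and 119 CPM in knockdown libraries, against 185, 183 and 181 CPM in control libraries. In CPM the 3 control values differed by little (log2 fold change -0.66, SE 0.118, edgeR adjusted p = 0.0203), and the call was lost without any knockdown library (adjusted p = 0.147 to 0.159). In TPM the groups overlapped, with 50.2, 45.5 and 47.5 TPM in knockdown libraries, against 49.7, 68.7 and 77.4 TPM in control libraries. IGF2BP3 did not pass (0.18, SE 0.184, edgeR adjusted p = 0.603). Of 4 convertases that cut receptor precursors none passed in edgeR, none had an unadjusted p under 0.05, and 0 passed with DESeq2, limma-voom or limma-voom with sample quality weights. FURIN, which processes the IGF1R and INSR precursors, had a log2 fold change of -0.48, and PCSK5 and PCSK6, of the same family, had -1.36 and -1.07. Control library 1 held 110 of the PCSK5 counts, against 10 and 12 in control libraries 2 and 3, and without it the value was -0.0519; that of FURIN was -0.0586 without control library 2.

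A list of other genes with an IGFBP domain, such as the CCN matricellular proteins, gave 7 tested genes and no call in edgeR. HTRA1, called as higher above, was placed among the proteases and is not in this list. Of the 7, 5 had an unadjusted p under 0.05, 4 passed with DESeq2, 2 with limma-voom and 2 with limma-voom and sample quality weights. The smallest p values belonged to CCN2 (log2 fold change -0.47, edgeR adjusted p = 0.0570), IGFBPL1 (-3.0, adjusted p = 0.0763) and CCN5 (-1.70, adjusted p = 0.0766). CCN2 was called without control library 1 (-0.53, edgeR adjusted p = 0.0454) and without control library 2 (-0.49, adjusted p = 0.00515). IGFBPL1 was called without control library 1 (-3.49, edgeR adjusted p = 0.0470), was at -2.04 without control library 2, which held 58 of its counts, and at -0.49 on unfiltered log2(TPM + 1). CCN5 was called without control library 3 (-2.02, edgeR adjusted p = 0.0367).

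Tested on log2(TPM + 1) in limma-trend, PHLPP1, PTPRF, SORT1 and IGF2BP2 kept their sign and lost their calls (adjusted p = 0.137, 0.301, 0.118 and 0.438).

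**Figure D4:**
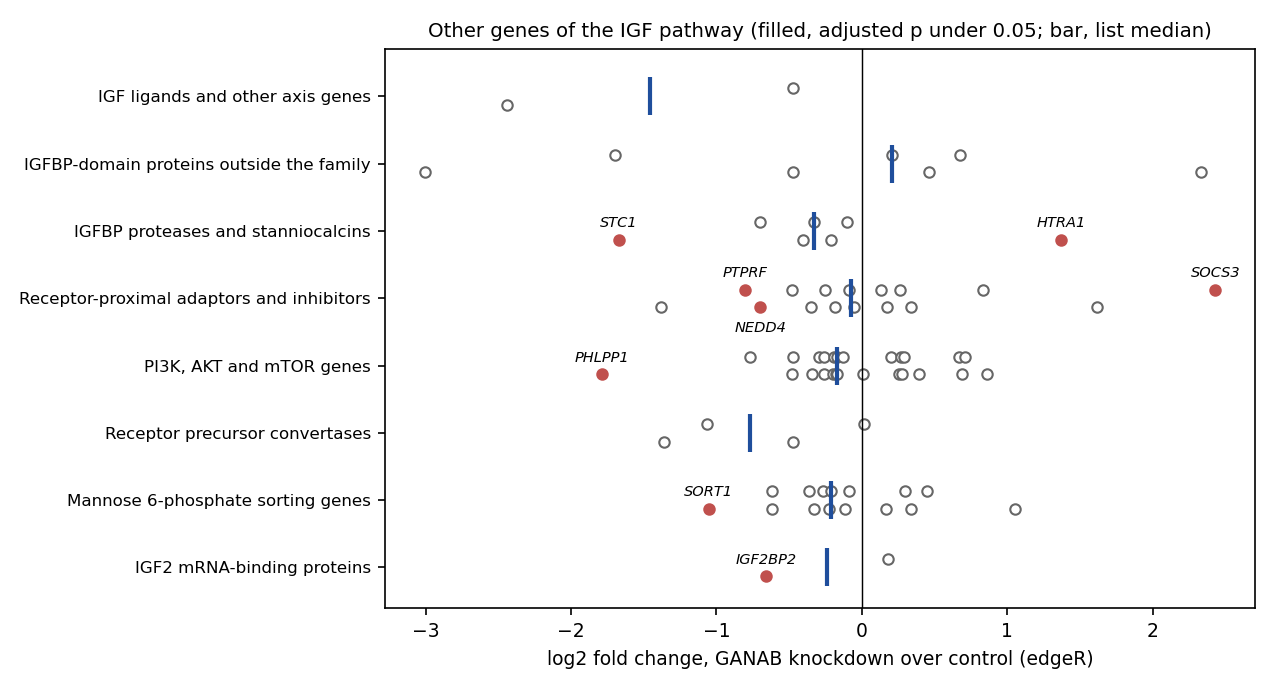
Log2 fold change of GANAB knockdown over control (horizontal axis) for the 78 tested genes of 8 pathway lists (rows); filled red points passed at an edgeR adjusted p under 0.05 and are named, and blue bars give the list median. SOCS3 at 2.43 and HTRA1 at 1.37 are the genes called as higher, and 6 named genes lie left of 0.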

How the data were processed

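RNA of 6 libraries (3 of GANAB knockdown, 3 of control cells) was sequenced in bulk; per the labels' protocols, RNA was extracted with TRIzol and libraries were made with a VAHTS Universal V6 kit. The submitters' processing notes name GRCh38, fastp, Salmon and DESeq2 without versions or roles; the sources used here do not give the transcript index, the strand setting or any step that sets mouse reads apart. The authors deposited estimated counts per gene, whole and not normalized, with at least 15 counts in total per gene and counts in at least 3 libraries, and TPM values that sum to the same total in each library. Knockdown columns carry an abbreviation for knockout and were matched by group and number.

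Estimated counts were tested in edgeR 4.0.16 under R 4.3.3 with glmQLFit and glmQLFTest (quasi-likelihood; filterByExpr, TMM, no covariate, 2-sided, Benjamini-Hochberg adjustment at 0.05 over 19430 genes; 2073 removed). The test was tried on simulated counts drawn with the same dispersion for every gene and library. The unequal spread of the groups was not simulated, so that trial does not show how the test behaves under it. Standard errors and 95% confidence intervals came from the log2 fold change and its F statistic. The IGF1R to INSR ratio used an exact permutation test (scipy 1.17.1). The genes described and all lists were chosen with earlier results of these data known. Named genes were GANAB, the 9 genes, up to 3 genes of smallest p per pathway list, and for the largest rise and fall the 3 most like genes with a symbol and a mean of at least 1 CPM; list members named with marker lists, promoters, TOP2A, TNS4 and IGFBP1 were added after values were seen. Of 21503 genes, 4253 had no symbol. Coordinates and overlaps came from GENCODE release 29, whose match to the authors' annotation is unknown. Pairs of libraries differed beyond sampling noise (chi-square per degree of freedom 6.07 to 7.78 for knockdown pairs, 119 to 484 for control pairs).

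Other settings tried were scaling in edgeR by DESeq2 size factors or by upper quartiles; the Wald test of DESeq2 1.42.0; voom of limma 3.58.1, plain or with quality weights per sample; edgeR unfiltered, or with a minimum of 5 CPM in 3 libraries; limma-trend on TPM with 1 or 0.1 added before log2 (genes averaging at least 1 TPM), and with 1 added and no filter; the replicate number as a block; the knockdown libraries summed to 1; and each library left out.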

Additional observations from a re-analysis of the deposited data

How the results depend on the processing

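The fall of IGFBP3 and the rise of IGFBP5 kept their direction in all 18 alternatives and each lost its call in 5: without each knockdown library, with these libraries summed to 1, and with log2(TPM + 1) unfiltered. IGFBP7 was called in none. Depth was lowest in control library 3, where 1 count is 0.0823 CPM, which limits IGFBP5 and IGF1. Without knockdown library 1, 2 or 3, the calls over all genes were 62 of 19924, 115 of 20009 and 88 of 19985. Without control library 2 they were 5604 of 20264. With 1 library left out, the 9 genes gave 0 to 6 calls (0 to 3 higher, 0 to 3 lower), against 2 with all libraries. The 9 genes gave 0 without knockdown library 1, 2 or 3 (3 genes at an unadjusted p under 0.05 each) and 6 without control library 2. They gave 5 calls with limma-voom and quality weights (2 higher, 3 lower), 3 with DESeq2 (1 higher, 2 lower), 0 with unfiltered log2(TPM + 1) and 0 with the knockdown libraries summed (2 genes at an unadjusted p under 0.05 in each).

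Over all genes the 1614 calls (892 higher, 722 lower) became 3676 with DESeq2 (1908 and 1768), 3716 with quality weights (1703 and 2013), 828 and 526 with 1 and 0.1 added to TPM (77 and 56 lower, 470 higher with 0.1), 46 without a TPM filter (43 and 3), 1 with the knockdown libraries summed (1 and 0), and 62 to 5604 with 1 library left out (53 to 2808 higher, 9 to 2796 lower). Plain limma-voom called 1386 as higher. Of all calls 55.3% were higher with edgeR, 59.0% with limma-voom, 62.2% with the replicate block and 90.7% with log2(TPM + 1), where the median of all genes was 0.23 in place of 0.03. The 8 pathway calls (2 higher, 6 lower) became 20 with DESeq2 (7 and 13), 14 with limma-voom (5 and 9), 25 with quality weights (8 and 17), 3 with 1 and 3 with 0.1 added to TPM (1 lower in each), 0 without a TPM filter, 0 with the knockdown libraries summed, and 0 to 33 with 1 library left out (0 to 13 higher, 0 to 20 lower); 4 were higher with at least 5 CPM in 3 libraries. The change of GANAB was not called with 0.1 added to TPM (-1.26), without a TPM filter (-1.25) or with the knockdown libraries summed (-1.62). The causes were not tested.

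The sign of IGFBP2 turned without control library 1 (-0.14) or 3 (-0.19), within a range up to 0.77 with 1 library left out. That of IGF1R turned with DESeq2 size factors (-0.0137), DESeq2 (-0.0127), quality weights (-0.12), log2(TPM + 1) with and without filter (-0.0275) and log2(TPM + 0.1) (-0.00417), and ran from -0.12 to 0.12 with 1 library left out. INSR turned with quality weights (-0.0244) and ran from -0.0620 to 0.18 with 1 library left out. IGF2 turned with quality weights (0.14) and with 1 or 0.1 added to TPM (0.0550 and 0.0604), and ran from -0.89 to 0.33 with 1 library left out. NEDD4 turned with 1 (0.43) or 0.1 (0.44) added to TPM, and IGF2BP3 without control library 1 (-0.0144, range up to 0.32). The log2 IGF1R to INSR ratio difference ran from -0.45 to 0.16 with 1 library left out, and turned without knockdown library 3 (0.03) and control library 3 (0.16).

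With the replicate number as a block, 566 genes (352 higher, 214 lower), 5 pathway genes (2 higher, 3 lower) and 2 of the 9 genes were called; IGFBP5 and IGFBP3 kept their calls, and PTPRF, NEDD4 and IGF2BP2 lost theirs (adjusted p = 0.0755, 0.119 and 0.0953). Deviations of same-numbered libraries correlated at only 0.00223, 0.0171 and 0.0218. Each library correlated best with its own number, a hint from the data only. Values this small cannot decide whether the numbers pair the libraries.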

Other observations

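The IGF-like (IGFL) genes form a separate small family on chromosome 19 and were named after their values were seen. IGFL4 had 53.8, 55.2 and 54.2 CPM in knockdown libraries, against 6.11, 1.89 and 9.79 CPM in control libraries, and rose 9.31-fold (log2 fold change 3.22, SE 0.499, edgeR adjusted p = 0.0141). IGFL2 had 0.695, 0.968 and 0.730 CPM in knockdown libraries and 0 counts in all 3 control libraries. Against a floor of 3 counts over the control group, 0.0514 CPM, it was at least 15.5-fold higher (edgeR adjusted p = 0.0293). With counts in the knockdown libraries only, IGFL2 passed the filters on low counts through that group alone. Its adjusted p is therefore no further support for the difference. IGFL1 had 5.09, 5.30 and 4.83 CPM in knockdown libraries, against 1.07, 0 and 0.494 CPM in control libraries, and did not pass (log2 fold change 3.22, SE 0.914, edgeR adjusted p = 0.0715). All 3 genes were higher in CPM in each knockdown library than in any control library, as were 21.9% of all genes tested. IGFLR1, a receptor gene of the IGF-like family, had 2.68, 2.19 and 2.33 CPM in knockdown libraries, against 2.87, 6.26 and 0.988 CPM in control libraries. It did not pass (log2 fold change -0.50, SE 0.604, edgeR adjusted p = 0.665).

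The summed level of 12 urothelial and epithelial markers was 384 to 411 TPM in knockdown libraries and 163 to 431 TPM in control libraries. Most of it came from KRT8 and KRT18, while the urothelial gene UPK3A was listed at 0 in all 6 libraries. Of the 10 tested, UPK1A rose. Endothelial markers were scarce, with a summed level of 2.20 to 3.50 TPM in knockdown and 1.29 to 1.70 TPM in control libraries. None of the 6 tested passed in edgeR, 1 had an unadjusted p under 0.05, and 1 passed with DESeq2, 1 with limma-voom and 1 with limma-voom and sample quality weights.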
